A study of Mus musculus with 44 samples.

Results

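Plasma cells of the bone marrow were compared between 2 sorted populations of the same mice, taken 5 days after tamoxifen. The YFP+ sort is labelled as long-lived plasma cells and the YFP- sort, named TOM in the titles, as bulk plasma cells. The 6 libraries were chosen by their labels alone: day-5 marrow, YFP+ and YFP-, of the mice named 09-01, 07-26 and 09-29, out of 44 libraries in the series, with 3 YFP+ and 3 YFP- libraries paired by mouse. Both sorts come from mice of the genotype BEC-YFP that were 24 weeks old at tamoxifen, and both were purified by flow cytometry as CD138high B220- cells. The rest of the series holds spleen libraries of the same day and marrow and spleen libraries of day 90, which come also from mice given tamoxifen at 6 to 8 weeks. A 4th day-5 marrow library, of mouse 09-15, is titled TOM but carries the cell type label of the YFP+ cells and entered no comparison.

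A plasma cell is the end stage of the B lineage, a cell given over to antibody secretion, with Prdm1 (Blimp-1), Irf4 and Xbp1 as its defining transcription factors and Sdc1 (CD138) as its surface mark. Many plasma cells die soon after they form, while others settle in marrow niches and persist. In strains of the BEC-YFP kind, tamoxifen switches on a Cre recombinase in Blimp-1-expressing cells, so that plasma cells marked at that time carry YFP from then on. Cells formed later do not, nor do cells that were present but not marked. Day 5 is therefore early after the mark is set. The plasmablast, the precursor of the plasma cell, still divides, and the plasma cell does not.

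The 3 YFP+ libraries held 8963973 to 10161750 counts and the 3 YFP- libraries 10260889 to 10601351, and the same-mouse libraries deviated together (correlation of deviations across genes 0.648, 0.428 and 0.686 for mice 09-01, 07-26 and 09-29). Levels are given in CPM, counts per 1e6 scaled with edgeR's TMM factors. Immunoglobulin genes were left out of the deposited table. The plasma cell label held in every library. Sdc1 stood at 886, 838 and 723 CPM in YFP+ cells and at 739, 744 and 634 CPM in YFP- cells of mice 09-01, 07-26 and 09-29. Jchain, which joins the subunits of polymeric antibody, took 333148 to 390691 CPM in YFP+ cells and 243212 to 348510 CPM in YFP- cells. Per kilobase of exon, Jchain led all genes at 143496 CPM per kb in YFP+ cells and 115842 in YFP- cells, ahead of the invariant chain gene Cd74 at 8504 in YFP+ cells and 9876 in YFP- cells, and Xbp1 stood at 4235 in YFP+ cells and 3713 in YFP- cells. Mouse 09-01 was the one with Xist (1.11 CPM in YFP+ cells and 9.31 CPM in YFP- cells); the 4 libraries of the other mice had none and held Y-linked transcripts.

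One library stood apart. Of 93 tested marker genes of other blood and marrow cells, 56 were highest in the YFP- library of mouse 07-26, and 10 had counts in that library alone. The matching shares over all genes were not counted, so these counts are only a description. That library also had the largest total, 10601351 counts, and the most genes detected, 13687 against 12930 to 13506 in the others. The erythroid markers summed to 6.94, 13.2 and 17.3 CPM in the YFP+ libraries of mice 09-01, 07-26 and 09-29, and to 9.04, 708 and 12.4 CPM in the YFP- libraries. The neutrophil and granulocyte precursor markers summed to 28.2, 34.2 and 134 CPM in the YFP+ libraries and 26.7, 714 and 20.9 CPM in the YFP- libraries, so the YFP+ library of mouse 09-29 also held some. The monocyte and macrophage markers summed to 37.8 to 196 CPM in YFP+ cells and 78.7 to 248 CPM in YFP- cells. T cell markers (16.8 to 22.9 CPM in YFP+ cells, 14.1 to 28.8 in YFP- cells), NK cell markers (26.0 to 65.8 in YFP+ cells, 19.5 to 53.0 in YFP- cells), stromal and endothelial markers (23.2 to 28.8 in YFP+ cells, 26.1 to 37.9 in YFP- cells) and platelet markers (0.101 to 0.42 in YFP+ cells, 0.29 to 2.75 in YFP- cells) were low in both. Markers of naive or mature B cells summed to 76.5 to 209 CPM in YFP+ cells and 138 to 298 CPM in YFP- cells. Those of early B lineage cells summed to 93.7 to 139 CPM in YFP+ cells and 77.5 to 124 CPM in YFP- cells. Nearly all of that sum was Vpreb3, and Rag1, Rag2 and Dntt were at most 0.474 CPM in any library. Likewise Pecam1 made up nearly all of the stromal and endothelial sum, and Gzma and Prf1 most of the NK cell sum. Cd68 gave 34.9 to 106 CPM of the monocyte and macrophage sum in YFP+ cells and 73.8 to 117 CPM in YFP- cells. Markers listed for plasmacytoid dendritic cells, several of which plasma cells also express, summed to 2118 to 3170 CPM in YFP+ cells and 1964 to 3231 CPM in YFP- cells. The T cell gene Cd3e and the macrophage gene Csf1r were at 0 in every library but the YFP- one of mouse 07-26. In bulk samples, fewer cells of a type and less RNA per cell cannot be told apart.

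**Figure D1:**
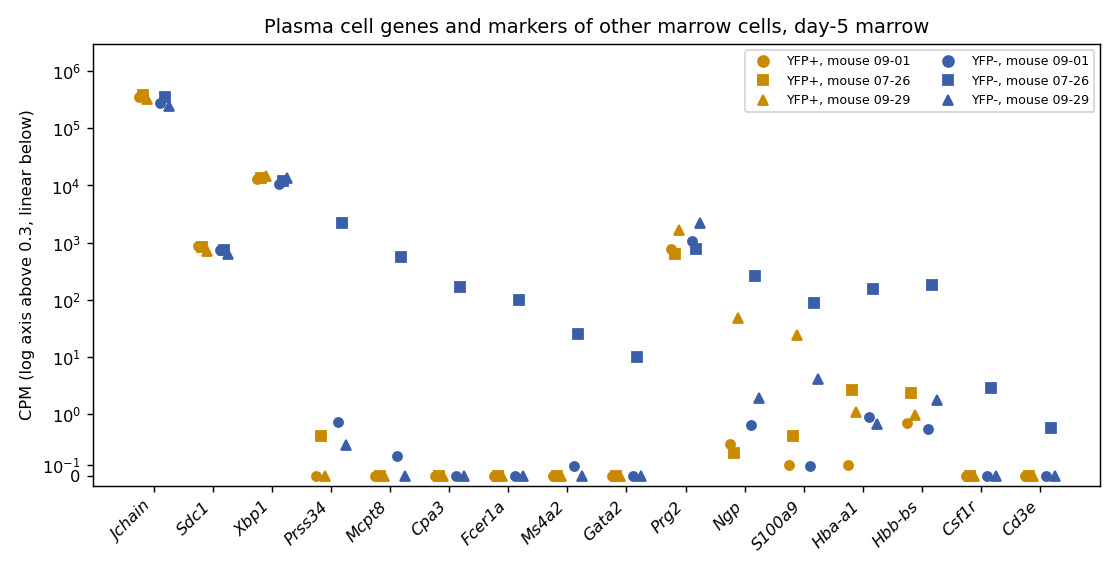
Level of plasma cell genes (Jchain, Sdc1, Xbp1) and of markers of other marrow cells in each of the 6 day-5 marrow libraries, in CPM on an axis that is logarithmic above 0.3 and linear below; orange, YFP+; blue, YFP-; the marker shape gives the mouse. The plasma cell genes lie together in all 6 libraries, whereas Prss34, Mcpt8, Cpa3 and Fcer1a are high in the YFP- library of mouse 07-26 (blue squares), with Prss34 at 2236 CPM there and below 1 CPM in the others.

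How far do marked and unmarked marrow plasma cells differ 5 days after the mark is set? Hardly any gene passed. In edgeR's quasi-likelihood test with mouse as a block and Benjamini-Hochberg adjustment over 12457 genes, 0 genes were higher in YFP+ cells at an adjusted p under 0.05 (0% of the genes tested) and 2 were lower (0.0161%), the basophil protease genes Prss34 and Mcpt8. At an unadjusted p under 0.05 there were 96 higher genes (0.771%) and 233 lower genes (1.87%). The median log2 difference over all genes tested was -0.00634, and 51% were negative. A gene was lower in YFP+ cells of all 3 mice in 1808 cases (14.5%) and higher in all 3 in 1782 cases (14.3%).

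Prss34 is a serine protease of basophils. It had 0, 4 and 0 counts in the YFP+ libraries of mice 09-01, 07-26 and 09-29, and 8, 23606 and 3 counts in the YFP- libraries, that is 0, 0.42 and 0 CPM in YFP+ cells and 0.723, 2236 and 0.29 CPM in YFP- cells. A single library held nearly all of it, and the other values of the sorts overlapped. The fitted log2 difference was -12.19 ± 0.82 (SE, edgeR adjusted p = 1.46e-08), a value that rests on mouse 07-26, with 4 counts in YFP+ cells against 23606 in YFP- cells. Mcpt8, another basophil protease, had 0 counts in all 3 YFP+ libraries and 2, 5933 and 0 counts in the YFP- libraries (adjusted p = 0.00183). Against a floor of 3 counts per library, its mean was at least 575-fold lower in YFP+ cells with the YFP- library of mouse 07-26, and without mouse 07-26 both sorts lay under the floor. The same YFP- library held 1036 counts of the IgE receptor chain Fcer1a, 1791 of the mast cell and basophil carboxypeptidase Cpa3, 262 of Ms4a2 and 104 of Gata2, a transcription factor of basophils and mast cells; the YFP+ libraries had 0 counts of each. Without that library, or without mouse 07-26, 0 genes passed, with 261 and 220 genes at an unadjusted p under 0.05, and the DESeq2 Wald test called neither Prss34 nor Mcpt8 in all libraries. In day-90 marrow of other mice given tamoxifen at 24 weeks, Prss34 stood at 0, 0, 0.109 and 0 CPM in YFP+ cells of mice M2, M3, F15 and F12, and at 0, 240, 150 and 0.302 CPM in YFP- cells, so 2 of 4 YFP- libraries held it. The eosinophil granule gene Prg2, which plasma cells are also known to express had 767, 630 and 1651 CPM in YFP+ cells and 1055, 768 and 2219 CPM in YFP- cells of mice 09-01, 07-26 and 09-29, and was not highest in the YFP- library of mouse 07-26.

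Below the 2 calls stood a set of genes that were lower in YFP+ cells of each mouse but did not pass; 57 genes met the size and level needed to be named (a log2 difference of at least 0.5 in size, the same sign in all 3 mice and at least 20 CPM in the higher sort). Cpq, which encodes a secreted carboxypeptidase, had 3.32, 5.57 and 129 CPM in YFP+ cells of mice 09-01, 07-26 and 09-29, and 19.4, 25.4 and 263 CPM in YFP- cells. Its log2 difference was -1.70 ± 0.33 (SE; 95% interval -2.37 to -1.02; adjusted p = 0.0737). Each YFP+ value was below its own mouse's YFP- value, while the groups overlapped because mouse 09-29 was high in both sorts. Wnt10a, a secreted Wnt ligand, had 9.45, 5.68 and 91.8 CPM in YFP+ cells and 25.7, 18.8 and 136 CPM in YFP- cells (log2 difference -1.16 ± 0.23, adjusted p = 0.0737). Nucb2, a calcium-binding protein of the secretory pathway, had 8.34, 5.99 and 36.2 CPM in YFP+ cells and 28.9, 29.0 and 68.2 CPM in YFP- cells (log2 difference -1.58 ± 0.32, adjusted p = 0.0857). The ubiquitin ligase gene Nedd4 had 6.53, 5.78 and 19.6 CPM in YFP+ cells and 18.8, 19.9 and 49.3 CPM in YFP- cells (log2 difference -1.52 ± 0.36, adjusted p = 0.401). For all of them the mouse with the high level in one sort had it in the other. Without mouse 09-29, Cpq, Wnt10a and Nucb2 passed together with Prss34 and Mcpt8 (5 calls in all).

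Further down the same ranking, Pkd2l2 of the polycystin family had 17.9, 16.8 and 23.8 CPM in YFP+ cells and 31.2, 31.4 and 41.0 CPM in YFP- cells of mice 09-01, 07-26 and 09-29, with no overlap of the sorts and a log2 difference of -0.82 ± 0.23 (adjusted p = 0.807). Hmgn2, a nucleosome-binding protein, did not overlap either, at 37.3, 49.6 and 58.0 CPM in YFP+ cells and 61.5, 161 and 70.1 CPM in YFP- cells. Ms4a1, the B cell surface molecule CD20, had 27.1, 22.5 and 111 CPM in YFP+ cells and 71.2, 46.0 and 182 CPM in YFP- cells (log2 difference -1.04 ± 0.33, adjusted p = 1). The endolysosomal nuclease gene Pld4, the galectin gene Lgals9 and the phosphoinositide-binding Plekha1 were also in the set, with log2 differences of -1.08, -0.64 and -0.79.

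On the other side, 48 genes met the same rule as higher in YFP+ cells, and none passed. Satb1, a chromatin organizer of lymphocytes, had 34.2, 37.6 and 11.4 CPM in YFP+ cells of mice 09-01, 07-26 and 09-29, and 18.1, 17.2 and 6.38 CPM in YFP- cells (log2 difference 0.96 ± 0.27, adjusted p = 0.828). Both mucosal homing receptors of plasma cells were in the set. Ccr9, the receptor that draws lymphocytes to the small intestine, had 24.3, 33.7 and 10.7 CPM in YFP+ cells and 14.6, 15.2 and 4.83 CPM in YFP- cells (log2 difference 1.02 ± 0.36). Ccr10, which guides IgA plasma cells to epithelia, had 267, 291 and 131 CPM in YFP+ cells and 207, 187 and 55.7 CPM in YFP- cells (log2 difference 0.77 ± 0.33). The lysosomal fusion subunit Vps39 (log2 difference 1.27 ± 0.45), the protease cathepsin W gene Ctsw (0.55 ± 0.20), the Y-box protein gene Ybx3 (0.99 ± 0.36), Dpy19l1 (0.71 ± 0.26) and Abhd13 (0.74 ± 0.30) had all 3 YFP+ libraries above all 3 YFP- libraries, against 3.34% of all genes tested in that direction and 3.37% in the other. These genes were named by a rule that needs the same sign in all 3 mice and a minimum size in the same libraries. Such a rule favours separated sorts, so the shares over all genes are given as a description. Ybx3 took most of its difference from mouse 07-26, with 67.2, 59.2 and 63.5 CPM in YFP+ cells and 53.0, 11.5 and 50.1 CPM in YFP- cells. The glycogen phosphorylase gene Pygb, the TGF-beta signal mediator Smad4, the sodium pump subunit Atp1b1 and Cyhr1 had log2 differences of 1.04, 0.76, 0.58 and 0.55. In day-90 marrow of the other mice given tamoxifen at 24 weeks, Atp1b1 was called lower in YFP+ cells (log2 difference -0.98, edgeR adjusted p = 0.0248). Ccr9 was called higher there (1.76, edgeR adjusted p = 0.00441), and the other genes named in this set were not called.

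**Figure D2:**
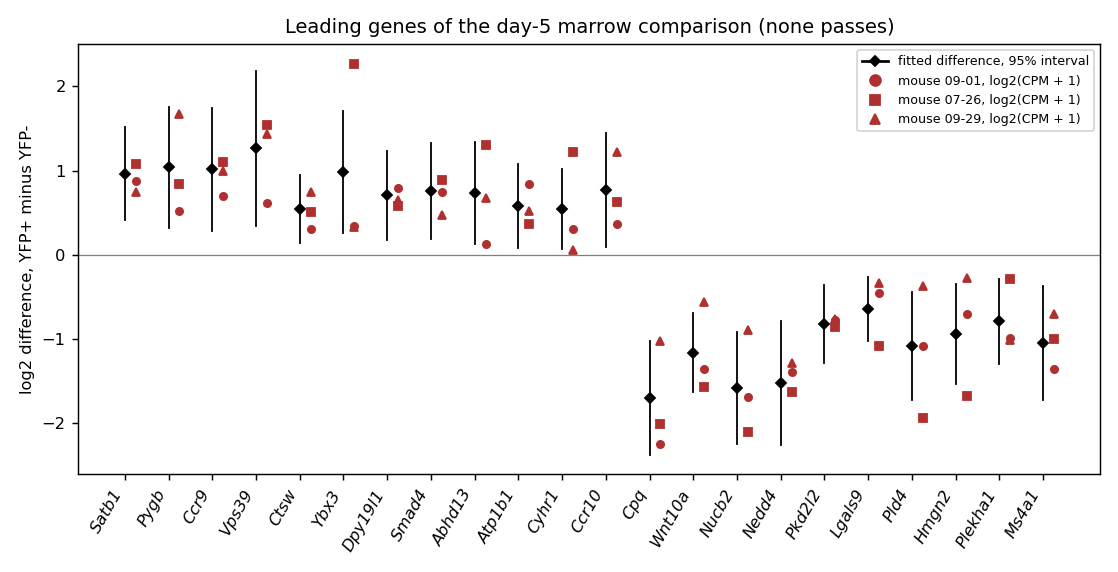
Log2 difference, YFP+ minus YFP-, of leading genes, 12 higher and 10 lower; black diamonds and bars, fitted difference with its 95% interval; red symbols, the difference of each mouse on log2(CPM + 1). None of the 22 genes shown passed the adjusted threshold although each has the same sign in all 3 mice; the interval of Cpq runs from -2.37 to -1.02.

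Among 22 lists of plasma cell and general cell programmes, the cell cycle genes stood lowest in YFP+ cells. Of 40 tested members of a proliferation list, 38 had a negative log2 difference, 16 were lower at an unadjusted p under 0.05 (1.87% of all genes), 15 had all 3 YFP+ libraries below all 3 YFP- libraries (3.37% of all genes), and 0 passed. The list's median was -1.11, against -0.00634 over all genes, and it stayed at -1.11 with the genes at 0 in all YFP+ libraries set to their bound. Summed over the list, the level was 644, 615 and 703 CPM in YFP+ cells of mice 09-01, 07-26 and 09-29, and 877, 1438 and 755 CPM in YFP- cells. The sorts did not overlap, the gap was widest in mouse 07-26, and it was narrow in mouse 09-29. The median per-mouse difference on log2(CPM + 1) was -0.69, -2.18 and -0.21 in mice 09-01, 07-26 and 09-29. Without mouse 07-26, whose YFP- library held the erythroid and granulocyte precursor transcripts, the median was -0.50, with 34 members negative and 5 lower at an unadjusted p under 0.05. The part of those cells in the difference was not tested. Without mouse 09-01 the median was -1.21, and without mouse 09-29 it was -1.69.

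The members with the lowest p included several genes of mitosis, all at low levels. Bub1, a kinase of the spindle checkpoint, had 0 counts in all 3 YFP+ libraries and 1.45, 11.1 and 1.35 CPM in the YFP- libraries of mice 09-01, 07-26 and 09-29, at least 14.2-fold lower in YFP+ cells against a floor of 3 counts per library and at least 4.23-fold lower without mouse 07-26 (adjusted p = 0.807). Ube2c, which works with the anaphase-promoting complex, had 0.402, 0.105 and 1.80 CPM in YFP+ cells and 8.32, 37.1 and 9.66 CPM in YFP- cells (log2 difference -4.30 ± 1.16, adjusted p = 0.807). Every YFP+ value was below every YFP- value. The mitotic cyclin gene Ccnb2 had 0, 0.315 and 3.36 CPM in YFP+ cells and 6.78, 39.9 and 6.18 CPM in YFP- cells, and the cyclin gene Ccna2 had 0.704, 0 and 2.04 CPM in YFP+ cells and 11.6, 31.2 and 4.44 CPM in YFP- cells. The spindle motor Kif11 had 0.201, 0.105 and 0.24 CPM in YFP+ cells and 5.79, 12.1 and 0.773 CPM in YFP- cells. In Ccnb2, Ccna2 and Kif11 too, every YFP+ value was below every YFP- value. Other members had smaller differences. The sliding clamp gene Pcna stood at 68.2, 78.0 and 73.8 CPM in YFP+ cells and 63.5, 89.0 and 74.7 CPM in YFP- cells (log2 difference -0.04 ± 0.18), and the helicase subunit Mcm6 at 101, 109 and 80.7 CPM in YFP+ cells and 113, 118 and 57.3 CPM in YFP- cells (log2 difference 0.03 ± 0.30). Of other replication genes, the helicase subunits Mcm3 and Mcm5 and the nucleotide synthesis gene Rrm2 had log2 differences of -0.96 ± 0.66, -0.89 ± 0.65 and -0.63 ± 0.38, and the mitotic checkpoint gene Bub1b had -0.27 ± 0.34. The proliferation marker Mki67 had 13.4, 33.4 and 18.5 CPM in YFP+ cells and 26.2, 46.2 and 19.1 CPM in YFP- cells (log2 difference -0.45 ± 0.39).

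**Figure D3:**
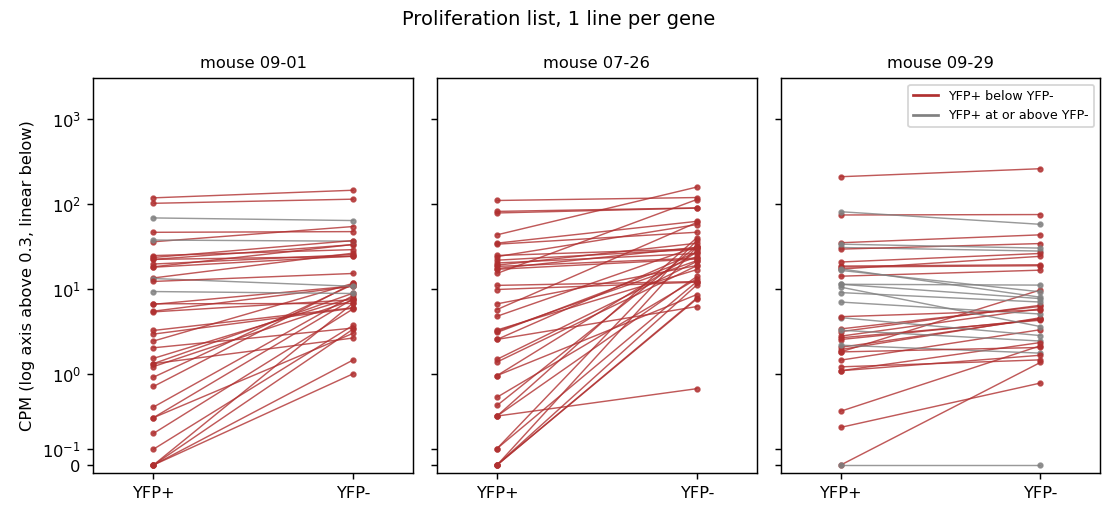
Level of the 40 genes of the proliferation list in YFP+ and YFP- cells of each mouse, 1 line per gene, in CPM on an axis that is logarithmic above 0.3 and linear below; red, YFP+ below YFP-; grey, YFP+ at or above YFP-. Most lines are red; the gap between the sorts is widest in mouse 07-26 and narrowest in mouse 09-29, matching the median per-mouse differences of -2.18 and -0.21.

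Promoters of genes that peak in mitosis are known for a CCAAT box, bound by the factor NF-Y, and for the cell cycle genes homology region (CHR), through which the same genes are held silent in cells that have left the cycle. RefSeq promoters (GRCm38.p6, from 250 bases before to 50 bases after the start) were at hand for 30 of the 40 list members. The letters CCAAT, on either strand, were in 24 of the 30 (80%), against 39.9% of the 9487 promoters of genes tested here and 37.9% of all 27025 promoters of the table. The CHR letters TTTGAA, on either strand, were in 14 of the 30 (46.7%), against 12.5% and 18.1%. A match describes the letters and is not shown to be a bound site. The promoters shown are those of the 4 members with the lowest p among those that had an entry, and capitals mark CCAAT and TTTGAA or their reverse complements.
Bub1, chr2:127831810-127832109, minus strand: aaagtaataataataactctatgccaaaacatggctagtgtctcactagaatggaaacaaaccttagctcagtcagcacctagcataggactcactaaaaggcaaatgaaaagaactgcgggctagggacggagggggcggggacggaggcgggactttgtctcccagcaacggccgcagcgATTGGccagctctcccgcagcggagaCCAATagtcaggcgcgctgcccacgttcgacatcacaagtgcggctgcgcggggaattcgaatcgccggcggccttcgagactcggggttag
Ube2c, chr2:164769679-164769978, plus strand: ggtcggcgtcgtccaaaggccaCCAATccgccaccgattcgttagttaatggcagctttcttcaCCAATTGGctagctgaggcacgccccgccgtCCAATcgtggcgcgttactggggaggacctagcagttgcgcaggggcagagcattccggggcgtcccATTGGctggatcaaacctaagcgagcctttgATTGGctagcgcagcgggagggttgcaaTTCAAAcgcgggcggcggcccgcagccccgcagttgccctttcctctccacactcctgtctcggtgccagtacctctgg
Kif11, chr19:37376132-37376431, plus strand: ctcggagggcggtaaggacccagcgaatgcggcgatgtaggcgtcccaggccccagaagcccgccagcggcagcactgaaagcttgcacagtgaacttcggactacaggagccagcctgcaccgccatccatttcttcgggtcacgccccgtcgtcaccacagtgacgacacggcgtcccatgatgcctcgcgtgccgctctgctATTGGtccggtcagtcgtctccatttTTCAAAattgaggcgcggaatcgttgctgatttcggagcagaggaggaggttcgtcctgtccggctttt
Cenpa, chr5:30666636-30666935, plus strand: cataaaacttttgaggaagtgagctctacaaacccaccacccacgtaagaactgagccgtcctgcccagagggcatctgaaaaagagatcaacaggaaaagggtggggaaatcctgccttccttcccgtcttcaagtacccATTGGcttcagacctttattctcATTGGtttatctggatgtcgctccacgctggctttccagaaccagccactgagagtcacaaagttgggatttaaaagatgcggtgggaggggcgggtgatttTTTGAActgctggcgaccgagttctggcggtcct
Bub1 has 2 CCAAT matches and no TTTGAA match, Ube2c has 6 and 1, Kif11 has 1 and 1, and Cenpa, the centromeric histone gene, has 2 and 1. Cenpa stood at 2.92, 2.52 and 3.12 CPM in YFP+ cells of mice 09-01, 07-26 and 09-29 and at 5.88, 27.1 and 6.38 CPM in YFP- cells. Nusap1, a spindle protein gene further down the ranking, has no match of either kind.

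The remaining programmes of the plasma cell differed little. Over 644 tested genes of the 21 other lists, each counted once and none on the proliferation list, 0 passed, with 19 lower (2.95%, against 1.87% of all genes) and 5 higher (0.776%, against 0.771%) at an unadjusted p under 0.05. The medians of the 21 lists lay between -0.149 and 0.111. Of 23 plasma cell identity genes, 15 were positive (median 0.111). The transcription factor genes gave intervals close to 0: Prdm1 had 155, 151 and 79.0 CPM in YFP+ cells of mice 09-01, 07-26 and 09-29 and 123, 142 and 73.3 CPM in YFP- cells (log2 difference 0.17, 95% interval -0.14 to 0.49). The interval was -0.24 to 0.46 for Irf4 and -0.15 to 0.54 for Xbp1. Tnfrsf17, the survival receptor BCMA, had 411, 492 and 379 CPM in YFP+ cells and 391, 430 and 387 CPM in YFP- cells (log2 difference 0.07, interval -0.32 to 0.46), and the survival factor Mcl1 had 220, 248 and 193 CPM in YFP+ cells and 200, 194 and 181 CPM in YFP- cells (interval -0.13 to 0.52). These intervals leave room for differences of up to about their bounds. Trp53inp1, a p53-induced autophagy gene, had 982, 1462 and 676 CPM in YFP+ cells and 642, 1198 and 538 CPM in YFP- cells (log2 difference 0.41 ± 0.15, adjusted p = 1), higher in each of the 3 mice.

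Of 27 tested genes of B cells and antigen presentation, 18 were negative and 6 were lower at an unadjusted p under 0.05 (median -0.149), against 51% negative and 1.87% lower over all genes. Besides Ms4a1 they included Cd72, Cd40, Fcer2a and the class II cofactor gene H2-Ob, which had 25.0, 20.1 and 35.4 CPM in YFP+ cells of mice 09-01, 07-26 and 09-29 and 42.4, 33.0 and 43.7 CPM in YFP- cells (log2 difference -0.60 ± 0.25, adjusted p = 1). Of the 9 positive members, Cd79a, part of the B cell receptor complex, was the 1 at an unadjusted p under 0.05, at 1995, 2078 and 1954 CPM in YFP+ cells and 1682, 1650 and 1606 CPM in YFP- cells, with no overlap (log2 difference 0.29 ± 0.13, adjusted p = 1). Of 49 ribosomal protein genes, 49 were negative, with a small median of -0.142. In 4 of them all YFP+ libraries were below all YFP- libraries (3.37% of all genes), and none reached an unadjusted p under 0.05. The chemokine receptor Cxcr4, which holds plasma cells in the marrow, had 12.9, 4.41 and 26.2 CPM in YFP+ cells and 20.1, 11.0 and 31.8 CPM in YFP- cells (log2 difference -0.71 ± 0.30, adjusted p = 1). Of 25 NF-kB and TNF response genes, 11 were negative and 14 positive (median 0.00662). At an unadjusted p under 0.05, 5 were lower and 0 higher, against 1.87% and 0.771% of all genes. Nfkb1, the p105 and p50 subunit gene and 1 of the 5, had 4.83, 12.1 and 7.31 CPM in YFP+ cells and 12.1, 14.4 and 20.7 CPM in YFP- cells (log2 difference -0.98 ± 0.33, adjusted p = 1).

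The same contrast was made in marrow of other mice, taken 90 days after tamoxifen given at the same age. There, 22 genes were higher in YFP+ cells (0.177%) and 52 were lower (0.417%), with 4 mice in each sort. These genes were chosen in mice that are not in the day-5 comparison. At day 5 the 22 had a median log2 difference of 0.0741, against 1.13 at day 90, and 14 of 22 kept the sign. The 52 had a median of -0.0715, against -1.65 at day 90, with 30 of 52 negative, against 51% of all genes. Of the 52, 7 were lower at an unadjusted p under 0.05 at day 5, against 1.87% of all genes, and 1 was higher; 2 were called, which were Prss34 and Mcpt8. Of the 22 genes, 6 were higher in all 3 mice and 5 lower in all 3. Of the 52, 11 were lower in all 3 and 10 higher in all 3. Over all genes tested, 14.5% were lower in all 3 mice and 14.3% higher.

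The difference between days was tested in the same fit. It passed for 6 genes, with 4 higher at day 5 than at day 90 (0.0321% of genes) and 2 lower (0.0161%). Fam3c, which encodes a secreted cytokine-like protein, had 52.6, 65.6 and 55.4 CPM in YFP+ cells of mice 09-01, 07-26 and 09-29 at day 5 and 33.3, 42.0 and 30.6 CPM in YFP- cells; at day 90 it had 5.57 ± 1.11 CPM in YFP+ cells and 65.2 ± 20.1 CPM in YFP- cells (SD, n = 4 mice each). All 3 YFP+ libraries of day 5 were above the YFP- libraries, and at day 90 all 4 were below. The day-5 log2 difference was 0.73 ± 0.37 and the day-90 one -3.47 ± 0.37, a change of 4.20 ± 0.52 (edgeR adjusted p = 9.36e-05). Cd38, an ectoenzyme of B and plasma cells, had 23.3, 25.8 and 31.4 CPM in YFP+ cells at day 5 and 16.9, 25.3 and 24.9 CPM in YFP- cells. At day 90 Cd38 had 3.90 ± 1.03 CPM in YFP+ cells and 23.8 ± 6.96 CPM in YFP- cells, and the change between days was 2.89 ± 0.43 (edgeR adjusted p = 0.00109). The inhibitory receptor Tigit had 53.7, 102 and 18.5 CPM in YFP+ cells at day 5 and 45.8, 67.6 and 17.9 CPM in YFP- cells, against 18.2 ± 9.99 CPM in YFP+ cells and 51.0 ± 23.4 CPM in YFP- cells at day 90 (change 1.82 ± 0.32, edgeR adjusted p = 0.0134). At day 5 its values were further apart between mice than between the sorts. Wnt10a went the other way, lower in YFP+ cells of each mouse at day 5 and at 82.5 ± 37.6 CPM in YFP+ cells and 54.2 ± 28.3 CPM in YFP- cells at day 90 (change -1.82 ± 0.30, edgeR adjusted p = 0.00541). The other 2 genes, named here after their values were seen, were Nebl, a nebulin relative below 10 CPM (change 3.95 ± 0.78, edgeR adjusted p = 0.041), and the gene model Gm43292, at 0 counts in all YFP+ libraries of day 5 and under 1 CPM in the YFP- ones. Each day has its own mice, so day and mouse cannot be told apart. Fam3c passed under each alternative run. Without mouse 09-01 the count fell to 1, without 07-26 to 2 and without day-90 mouse M3 to 3, and without F15 or F12 it was 11 or 12.

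The 10 named genes higher at day 90 had day-5 log2 differences between -0.46 and 0.25. The lowest were Cyp4f18, at -0.46 ± 0.28 against 1.11 at day 90, and Fchsd2, at -0.36 ± 0.25 against 1.13, both lower in YFP+ cells of all 3 mice at day 5 without passing. The vesicle GTPase gene Rab3b had 19.1, 17.1 and 18.6 CPM in YFP+ cells of mice 09-01, 07-26 and 09-29 and 18.9, 18.5 and 21.2 CPM in YFP- cells at day 5 (log2 difference -0.09 ± 0.17), and at day 90 it had 51.2 ± 6.10 CPM in YFP+ cells and 27.0 ± 4.74 CPM in YFP- cells (log2 difference 0.94; change between days -1.03 ± 0.23, edgeR adjusted p = 0.0764). The lysosomal protease gene Ctsl had 57.2, 65.8 and 63.6 CPM in YFP+ cells and 59.9, 52.1 and 64.4 CPM in YFP- cells at day 5. At day 90 Ctsl stood at 122 ± 8.47 CPM in YFP+ cells and 68.2 ± 19.1 CPM in YFP- cells. Among the genes lower at day 90, the adhesion receptor Slamf6 had 117, 120 and 115 CPM in YFP+ cells and 110, 147 and 119 CPM in YFP- cells at day 5, against 41.0 ± 4.94 CPM in YFP+ cells and 135 ± 27.5 CPM in YFP- cells at day 90 (change 1.61 ± 0.35, edgeR adjusted p = 0.0728). The class II gene H2-Ab1 had 989, 837 and 1274 CPM in YFP+ cells and 891, 945 and 1128 CPM in YFP- cells at day 5, against 509 ± 93.1 CPM in YFP+ cells and 1115 ± 238 CPM in YFP- cells at day 90. Neither Slamf6 nor H2-Ab1 separated the sorts at day 5. Fcmr, the receptor for IgM, and H2-Ob were nearer to their day-90 pattern, lower in YFP+ cells of each mouse at day 5, with log2 differences of -1.24 ± 0.47 and -0.60 ± 0.25, against -3.22 for Fcmr at day 90, when H2-Ob had 12.4 ± 3.58 CPM in YFP+ cells and 36.0 ± 9.27 CPM in YFP- cells. A change that misses the threshold does not show that the days are alike.

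**Figure D4:**
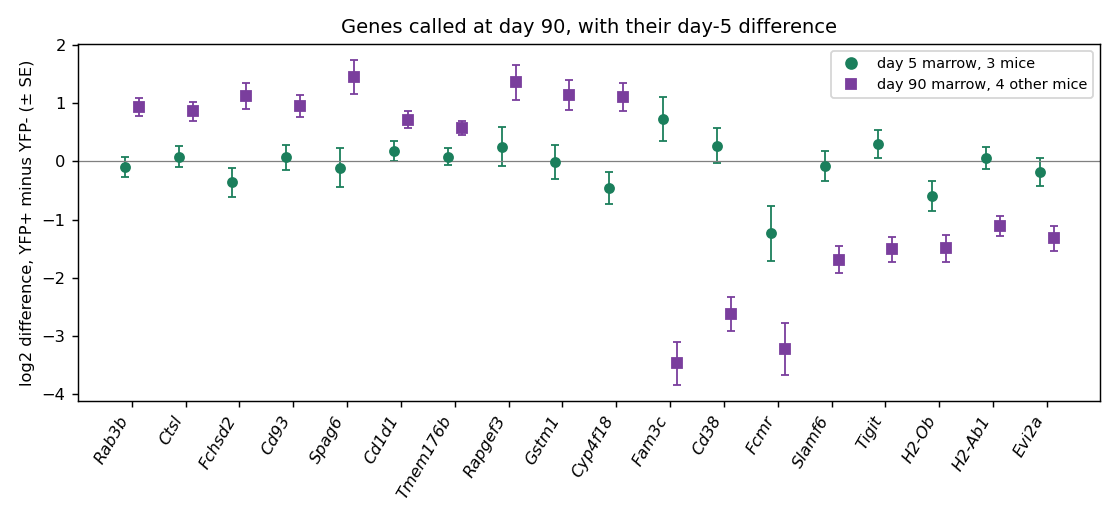
Log2 difference, YFP+ minus YFP-, at day 5 (green circles, 3 mice) and at day 90 (purple squares, 4 other mice) of 18 genes called at day 90 in marrow of 24-week mice (Prss34 and Mcpt8 left out); bars, SE of the fit. Most day-5 values lie near 0, between -0.46 and 0.73 except Fcmr at -1.24 and H2-Ob at -0.60, while the day-90 values reach -3.47 for Fam3c.

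The same contrast was also made in the spleens of these mice, in other libraries that share the fit, and so its estimate of the spread, with those of marrow. A 4th YFP+ spleen library, of mouse 09-15, has no labelled YFP- partner. The test of marrow minus spleen, made on the YFP differences, passed for 1 gene (0.00803% of genes). It was Prss34, whose YFP+ minus YFP- difference was lower in marrow. The spleen libraries of both sorts held at most 0.564 CPM of Prss34. Of the 11 lower genes ranked first by p under that rule, Prss34 aside, 10 were negative in spleen as well, against 6210 of all 12457 genes; Nedd4 and Lgals9 were not negative there without the mouse block (0.017 and 0.093). Cpq had 5.96, 14.5 and 109 CPM in YFP+ spleen cells of mice 09-01, 07-26 and 09-29 and 26.2, 49.9 and 153 CPM in YFP- spleen cells, lower in each mouse (log2 difference -1.58 ± 0.33, adjusted p = 0.0352). Nucb2 had 16.5, 17.8 and 57.0 CPM in YFP+ spleen cells and 65.2, 60.8 and 115 CPM in YFP- spleen cells (log2 difference -1.61 ± 0.32, adjusted p = 0.0352). The YFP+ spleen library of mouse 09-15 held 108.5 CPM of Cpq and 173 CPM of Nucb2, the second above every YFP- spleen value. Pld4 passed in spleen too, and Ctsw passed as higher, with adjusted p = 0.0491 and 0.048. Wnt10a was the one of the 11 without a negative difference in spleen, at 9.96, 12.1 and 70.7 CPM in YFP+ cells and 11.9, 9.61 and 70.6 CPM in YFP- cells, although the marrow-minus-spleen difference of -1.20 ± 0.33 did not pass (adjusted p = 0.51). For YFP+ against YFP- in day-5 spleen, 174 genes were higher (1.4%) and 282 lower (2.26%), a count that fell to 0 without mouse 09-01, without mouse 07-26 or without the mouse block, and was 2819 without mouse 09-29. The ribosomal protein genes were also all negative in spleen, with 28 of 49 passing and a median of -0.998, against -0.142 in marrow, and the proliferation list had a spleen median of -0.661, with Ube2c passing as lower and the cell cycle transcription factor gene E2f1 as higher.

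In the 6 libraries alone, more genes passed between the mice than between the sorts, 1902 against 14. Over 4693 genes of at least 20 CPM, the median SD between the 3 mice was 0.2101 in YFP+ cells and 0.2175 in YFP- cells on the log2 scale. The mean within-mouse difference between the sorts had a median size of 0.0985, and the 3 within-mouse differences had a median SD of 0.1651. An SD between single libraries and the size of a mean of 3 differences are unlike measures. With sort and mouse as terms in the 6 libraries, 1902 of 10399 genes differed between the mice (18.3%, edgeR adjusted p under 0.05). Mouse 09-29 was the one apart, with 961 genes higher and 934 lower than in mouse 09-01, and 862 higher and 716 lower than in mouse 07-26, whereas mice 09-01 and 07-26 differed in 120 genes. The mouse and the date-like number in its library titles cannot be told apart here.

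The genes named here as setting mouse 09-29 apart had the same direction in both sorts. The fit that ranked them has no term for a mouse difference that varies with the sort, which favours such genes. Likeness between the sorts was not tested. The lysosomal protease gene Ctss had 820, 818 and 3240 CPM in YFP+ cells of mice 09-01, 07-26 and 09-29 and 1232, 1169 and 4658 CPM in YFP- cells (mouse 09-29 over 09-01, log2 difference 1.96). Cd74 had 10085, 7487 and 25262 CPM in YFP+ cells and 11788, 9796 and 28162 CPM in YFP- cells. The paraoxonase gene Pon3, the steroid enzyme gene Hsd11b1, the folate hydrolase gene Ggh and the surface molecule Cd52 were likewise higher in mouse 09-29, by log2 differences over mouse 09-01 of 1.80, 2.04, 3.08 and 1.42. Genes of the immediate early response, which cells switch on soon after a stimulus, were lower there. Fos had 637, 807 and 140 CPM in YFP+ cells and 576, 996 and 129 CPM in YFP- cells, and 9 of 20 tested genes of the immediate early list were lower in mouse 09-29 than in both others, against 449 of 10399 of all genes. By lists, 10 of 21 tested genes of B cells and antigen presentation were higher in mouse 09-29 than in both others, as were 18 of 37 proteasome genes and 22 of 52 nuclear respiratory chain genes, against 598 of 10399 of all genes.

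The 2 kinds of difference met in the leading genes. Of the 12 lower genes ranked first by p, 11 were tested between mice and 7 passed (Cpq, Wnt10a, Nucb2, Nedd4, Lgals9, Plekha1 and Ms4a1), and all 7 were highest in mouse 09-29. Of the 12 higher genes ranked first, 8 passed between mice (Satb1, Pygb, Ccr9, Vps39, Ctsw, Smad4, Atp1b1 and Ccr10), and all 8 had their lowest fitted level in mouse 09-29. For Vps39 and Smad4 the fitted log2 difference of mouse 09-29 from 07-26 was only -0.045 and -0.086. In YFP- cells both were lowest in mouse 07-26. Over all genes, 1902 of 10399 passed between the mice (18.3%). By the stricter tests between pairs of mice, 598 of the 10399 were higher in mouse 09-29 than in both others and 449 lower. Both counts of leading genes come from the same 6 libraries and are given as a description. In a fit of those 6 libraries alone, 14 genes passed between the sorts, all lower in YFP+ cells. Among them were Ctss, Cd52, Pon3, Prg2, Ms4a1, Nucb2 and Nedd4, but not Prss34 and Mcpt8. Of the 14, 13 also differed between the mice, against 18.3% of all genes, and all 13 were highest in mouse 09-29. Both tests used the same 6 libraries, so this overlap too is only a description.

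**Figure D5:**
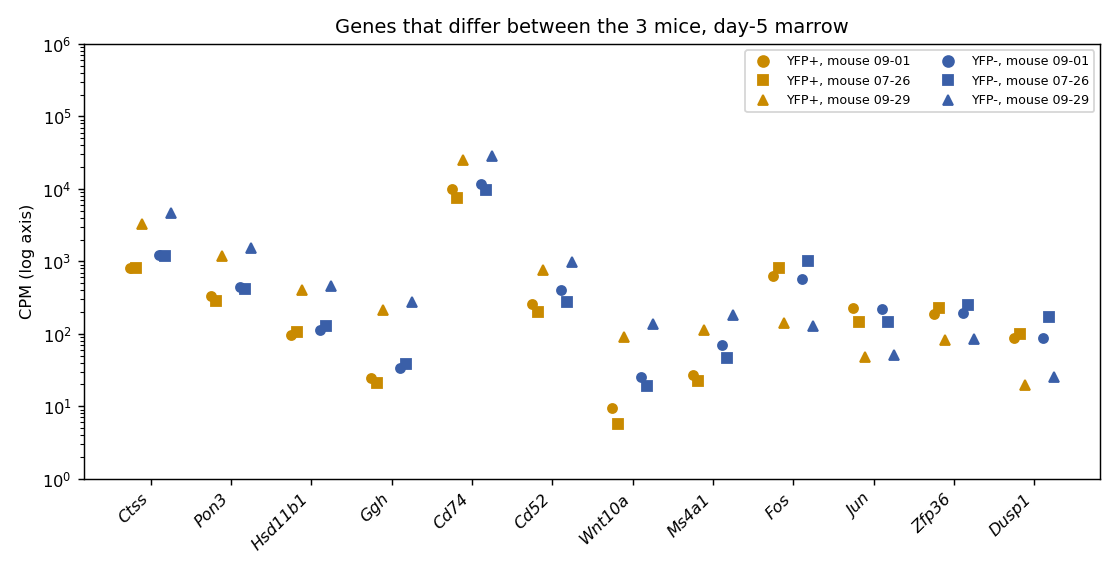
Level of genes that differ between the mice in each of the 6 day-5 marrow libraries, in CPM on a log axis; orange, YFP+; blue, YFP-; the marker shape gives the mouse. Mouse 09-29 (triangles) is highest for Ctss, Cd74 and Ms4a1 and lowest for Fos (140 CPM in YFP+ and 129 CPM in YFP- cells), in both sorts alike.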

How the data were processed

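RNA of sorted plasma cells was made into cDNA with SMART-Seq v4 and into libraries with Nextera XT, per the labels' protocols; the kits keep no strand, so antisense or overlapping genes share reads. The authors' deposited table holds estimated counts per gene, immunoglobulin genes left out, with 3.1% of values not whole; they were rounded. Tools listed by the submitters' processing notes are RSEM 1.3.1, STAR 2.6.1b and, of DESeq2, release 1.26.0, beside both GRCm38 and GRCm39 without a role. Near-identical copies (Hba-a1 and Hba-a2, ribosomal proteins) may share counts.

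All 43 labelled libraries entered 1 edgeR 4.0.16 quasi-likelihood fit in R 4.3.3 (TMM, filterByExpr with minimum count 10, 12457 of 54960 rows tested, 12 group means, mouse as a block since the titles name the same animals in both sorts), with Benjamini-Hochberg adjustment per contrast calls being made under 0.05 (common dispersion 0.117). Same-mouse libraries correlated at 0.428 to 0.686 in their deviations from the group means. None of the 6 pairs of libraries within a sort agreed within sampling noise (chi-square per degree of freedom 13.2 to 79.8). Mice were compared in the 6 libraries alone. Exon lengths came from GENCODE M21. Bounds use a floor of 3 counts and cover counting error only. The procedure was tested on simulated data. Alternatives used DESeq2 1.42.0, limma 3.58.1, other filters, other sample sets and left-out mice. Named genes were all calls, up to 12 each way by p with a log2 difference of at least 0.5, 1 sign in 3 mice and 20 CPM in the higher sort, list members, up to 10 each way called at day 90, up to 5 each way in the difference contrasts, the highest per length and the first 6 between mice, without unnamed models and sex-linked genes. The members, lists and rules were chosen with earlier results of these data known, and the spleen contrast was added after seeing the data. One gene that met the rule is not reported here.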

Additional observations from a re-analysis of the deposited data

Results flagged for a closer look

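In 6 genes the YFP difference in marrow at day 5 was not that of day 90, by the edgeR test of the difference between the days: 4.20 on the log2 scale for Fam3c, 2.89 for Cd38, 1.82 for Tigit, 3.95 for Nebl, -1.82 for Wnt10a and -9.82 for Gm43292, whose fitted value rests on libraries at 0. For Prss34 the difference in marrow was not that of spleen (-12.3 on the log2 scale), and it rests on the YFP- marrow library of mouse 07-26. Of 47 sets of 4 libraries looked at for 1 library far from the other 3, 2 had one, where chance gives about 1 in 20. They were Fcmr in day-90 YFP- marrow, with 94.9 CPM in mouse F15 and 22.2 to 30.5 CPM in the other mice, and Prss34 in day-90 YFP+ marrow, with 0.109 CPM in mouse F15 and 0 in the others.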

How the results depend on the processing

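For day-5 marrow the 2 calls held with DESeq2 size factors and with the filter of 5 CPM. There were 0 calls with no mouse block, 0 with the 13 day-5 libraries alone and 0 without the YFP- library of mouse 07-26, an alternative chosen after seeing the data. There was 1 call (Prss34) with limma voom, 14 with the 6 libraries alone, 87 with no filter on low counts and 60 with the DESeq2 Wald test, 40 of the 60 at 0 counts in all YFP+ libraries and 0 of them shared with the 2 calls (Prss34 and Mcpt8). Leaving out 1 mouse gave 0 to 5 calls. For the day-5 minus day-90 difference (6 calls), there were 2 with no mouse block, 100 with no filter and 98 with DESeq2, and leaving out 1 mouse gave 1 to 12. For marrow minus spleen (1 call), there were 0 with no mouse block, 0 with limma voom, 0 with the day-5 libraries alone, 106 with no filter and 58 with DESeq2, and 0 to 12 without 1 mouse. The 74 calls of day-90 marrow became 15 with no mouse block, 260 with no filter and 227 with DESeq2, and 27 to 74 without 1 mouse. The 456 calls of YFP+ against YFP- in day-5 spleen became 0 with no mouse block, 0 with the day-5 libraries alone, 1730 with no filter, 1277 with the filter of 5 CPM and 1913 with DESeq2, and 0 to 2819 without 1 mouse. The 1902 genes between mice were 1931 and 2144 under other settings. In spleen, with no mouse block, the sign turned for Nedd4 (0.017) and Lgals9 (0.093), and leaving out 1 mouse moved Ybx3 between -0.94 and 0.20; none of the 3 was called, and a sign is counted as turned where the value with all mice and the mouse block was larger than its SE. The median of the proliferation list was negative under every alternative run. The causes were not tested. With 3 mice, small differences are not detectable at this depth and spread.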

Other observations

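The day-5 marrow library of mouse 09-15, titled TOM and labelled as the YFP+ cell type had 0 counts of Prss34, Mcpt8, Fcer1a and Cpa3, and 53.1 CPM of S100a8. Cpq stood at 159.9 CPM, Wnt10a at 154 CPM, Nucb2 at 143 CPM, Ctss at 4738 CPM, Ube2c at 1.89 CPM, Fos at 665 CPM and Fam3c at 41.0 CPM. The CPM values of this library were scaled by its own total over the tested genes, without a TMM factor, because it entered no fit.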
